A study of Mus musculus with 16 samples.

Results

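The transportins Tnpo1, Tnpo2 and Tnpo3 were followed in 16 left ventricle libraries, as 3 named genes of the 56953 in the deposited count table, and all 3 passed the filter on low counts. Each library came from 1 mouse on the Bl6J background, with 4 mice in each of 4 groups. WT Ctr and WT Tnpo3 were wild type, and P635L Ctr and P635L Tnpo3 were homozygous for the P635L mutation of RBM20, a splicing factor of heart muscle. All mice had received 1e12 viral genomes of an AAV9 vector through the tail vein at an age of 4 weeks, and their hearts were taken 12 weeks later, at 16 weeks. The vector held either a Tnpo3 cDNA or, in the Ctr groups, the construct pCAG-iCre-T2A-eGFP, which encodes Cre recombinase and green fluorescent protein. The virus comparison is therefore one of 2 vectors, and mice without a vector were not analysed here. The promoter in front of the Tnpo3 cDNA is not given in the sources used here. Both sexes were used, and the labels name none for a single library.

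Transportins are nuclear import receptors of the importin beta family. They bind a cargo protein in the cytoplasm, carry it through the nuclear pore and release it when Ran bound to GTP binds the receptor inside the nucleus. Transportin 1 and its close paralog transportin 2 carry RNA-binding proteins with a PY nuclear localisation signal, such as hnRNP A1. Transportin 3 carries proteins with phosphorylated arginine- and serine-rich domains, among them the SR splicing factors, and P635L lies in the arginine- and serine-rich region of RBM20. The questions were how far each library's Tnpo3 level lay above the control level, which profile stood beside that level, and whether Tnpo1 and Tnpo2 responded.

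Transcript sequences were used to see how far reads of the 3 genes can be told apart, and where the isoforms of a member differ. In GENCODE M21 (GRCm38), the coding sequences of Tnpo1-202 (2694 bases) and Tnpo2-201 (2691 bases) had 74.8% identical bases over 2661 aligned bases, and their longest shared stretch was 26 bases. Tnpo3-201 (2769 coding bases) had 56.8% identity to Tnpo1-202 and 56.4% to Tnpo2-201, with longest shared stretches of 12 and 11 bases. No stretch of 50 bases was shared between any annotated transcripts of any pair of the 3 genes. Tnpo2 and Tnpo3 each have a late exon with 2 alternative 3′ splice sites that the deposited splicing tables measured in all groups. These segments are shown because the junction values below turn on them. The capitals mark the segment between the 2 splice sites, with 20 bases of exon on each side, and the forms without capitals use the downstream site. Exon 20 of Tnpo1-202 is shown beside exon 21 of Tnpo2 because it begins where the short form of Tnpo2 does.
Tnpo3-202, long form: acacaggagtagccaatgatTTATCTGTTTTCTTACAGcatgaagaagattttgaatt
Tnpo3-201, short form: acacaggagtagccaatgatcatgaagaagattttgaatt
Tnpo2-201, long form: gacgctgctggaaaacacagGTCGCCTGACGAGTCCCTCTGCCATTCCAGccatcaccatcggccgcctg
Tnpo2-207, short form: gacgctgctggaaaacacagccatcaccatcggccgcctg
Tnpo1-202: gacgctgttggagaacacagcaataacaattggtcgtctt
The Tnpo3 segment is 18 bases long and the Tnpo2 segment 30 bases, so both keep the reading frame. The coding sequence of Tnpo3-202 is 2787 bases and that of Tnpo2-207 is 2661 bases.

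Library totals ran from 28493249 to 85922669 counts, and 18662 genes were tested. Normalised counts are given as counts per 1000000 (CPM) with TMM scaling. The gene ENSMUSG00000119584 held 19.96% to 22.65% of the counts in WT Ctr replicates 2 and 4 and WT Tnpo3 replicate 4. Xist exceeded the Y-linked genes in WT Ctr replicate 4 and WT Tnpo3 replicates 2 and 4, and in 0 of the 8 P635L libraries. Both sets of 3 libraries are thus wild type. Of 9 cardiomyocyte markers all were tested, and their summed level was 84700 to 102000 CPM in WT Ctr, 72400 to 90000 CPM in WT Tnpo3, 57100 to 60900 CPM in P635L Ctr and 61400 to 72500 CPM in P635L Tnpo3. The 5 fibroblast markers summed to 625 to 907, 685 to 836, 1070 to 1570 and 705 to 960 CPM in the same order. Summed levels over all libraries were 732 to 1050 CPM for 4 endothelial, 85.1 to 226 CPM for 4 smooth muscle, 116 to 406 CPM for 4 macrophage and 1.24 to 11.8 CPM for 4 lymphocyte markers. The 4 atrial markers, of which 2 were tested and 1 is Nppa, summed to 151 to 9800 CPM. The 4 skeletal muscle markers (1 tested) summed to 0.0304 to 0.681 CPM and the 3 hepatocyte markers (1 tested) to 0.151 to 4.61 CPM. In left ventricle tissue, fewer cells of a type and less RNA per cell cannot be told apart.

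Tnpo3 (ENSMUSG00000012535) is on the minus strand of chromosome 6, from 29540826 to 29609886 in the files' build, GRCm39 per the submitters' processing notes. In WT Ctr replicates 1 to 4 it was at 43.6, 49.4, 41.6 and 44.8 CPM, and in P635L Ctr at 41.9, 42.6, 47.8 and 45.6 CPM. In WT Tnpo3 it was at 282, 262, 231 and 507 CPM. In P635L Tnpo3 it was at 359, 723, 543 and 234 CPM. All 8 libraries given the Tnpo3 virus lay above all 8 given the control virus, and the control libraries differed among themselves by 1.19 times from lowest to highest. Relative to the mean of the Ctr group of the same genotype, the single libraries were raised 6.29, 5.83, 5.16 and 11.3 times in WT Tnpo3 and 8.07, 16.2, 12.2 and 5.26 times in P635L Tnpo3. The coefficient of variation was 39.4% and 46.0% in the Tnpo3 virus groups, against 7.34% in WT Ctr and 6.11% in P635L Ctr. The Tnpo3 virus groups were thus the more variable ones, at a labelled dose that was the same for every mouse. WT Tnpo3 replicate 4, the highest of its group, is also a library rich in ENSMUSG00000119584 and high in Xist. Over both genotypes together the log2 fold change was 3.11 (SE 0.21, edgeR adjusted p = 1.53e-06), a fold of 8.64 with a 95% interval from 6.33 to 11.8. Of all genes, 0.536% were called in this contrast at an adjusted p under 0.05. The two-sided exact permutation test within genotypes gave p = 0.000408, the smallest that 4900 assignments allow. In WT hearts alone the log2 fold change of 2.84 (edgeR adjusted p = 0.000814) lost its call in 2 alternatives. It was 2.64 (edgeR adjusted p = 0.281) with the 3 ENSMUSG00000119584-rich libraries left out, and 2.55 (edgeR adjusted p = 0.102) with the 3 high in Xist left out. In P635L hearts it was 3.38 (edgeR adjusted p = 1.49e-05), and the interaction of 0.55 (95% interval -0.28 to 1.38) had an edgeR adjusted p of 0.588.

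**Figure D1:**
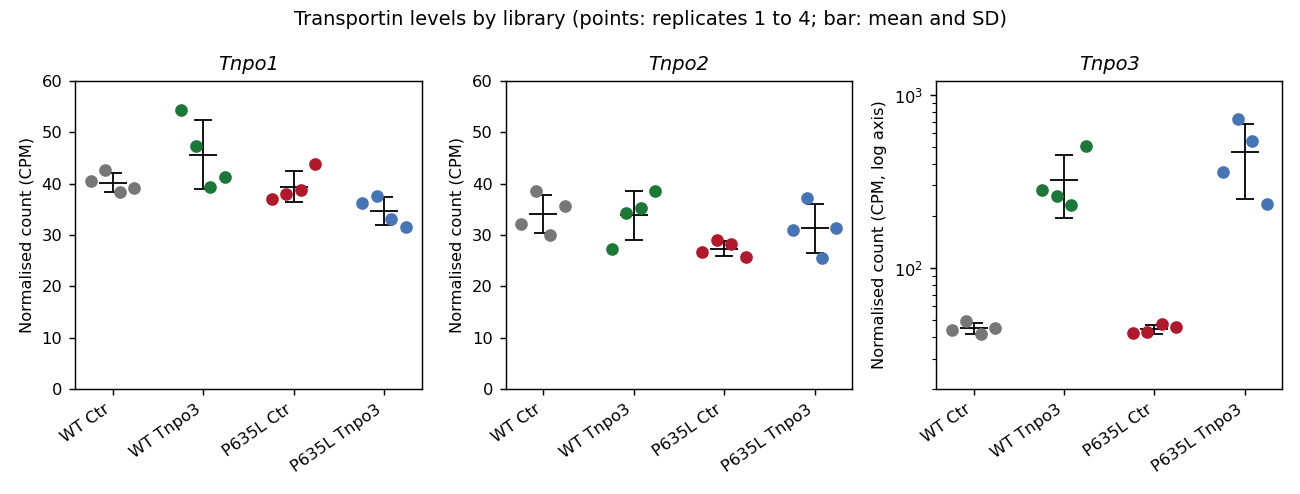
Normalised counts (CPM) of Tnpo1, Tnpo2 and Tnpo3 in each of the 16 libraries, with group mean and SD; the axis of Tnpo3 is logarithmic. The 8 libraries given the Tnpo3 virus lie at 231 to 723 CPM of Tnpo3, above all control libraries, while the groups of Tnpo2 overlap except WT Ctr with P635L Ctr.

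Irf5, an interferon regulatory factor on the opposite strand, overlaps 1045 bases of Tnpo3, and the setting of strand in counting is not given in the sources used here. Irf5 was at 8.16 ± 6.73 CPM in WT Ctr, 6.62 ± 1.26 CPM in WT Tnpo3, 5.86 ± 0.786 CPM in P635L Ctr and 7.49 ± 1.89 CPM in P635L Tnpo3 (SD, n = 4 each). Its log2 fold change over both genotypes was 0.03 (SE 0.26, edgeR adjusted p = 0.987). In every group the Irf5 level was a small part of the Tnpo3 level of the virus libraries. Gm43029, on the same strand inside Tnpo3, had group means of at most 0.344 CPM. For Tnpo1 and Tnpo2 the overlapping genes Gm5453, A230103J11Rik and Gm25506 had group means of at most 0.21, 0.479 and 0 CPM, far under the level of either transportin.

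Tnpo1 (ENSMUSG00000009470, chromosome 13, 98975527 to 99062892, minus strand) did not pass the test for the Tnpo3 virus in either genotype. It was at 40.6, 42.7, 38.4 and 39.1 CPM in WT Ctr and at 54.3, 47.4, 39.4 and 41.4 CPM in WT Tnpo3. These groups overlap, with replicates 1 and 2 of WT Tnpo3 above all WT Ctr libraries. In P635L Ctr it was at 37.0, 38.0, 38.8 and 43.8 CPM, and in P635L Tnpo3 at 36.3, 37.5, 33.1 and 31.6 CPM, where 3 of the 4 libraries given the Tnpo3 virus lay under all P635L Ctr libraries. With the virus, log2 Tnpo1 differed by 0.18 in WT hearts (95% interval -0.04 to 0.41, edgeR adjusted p = 1) and -0.18 in P635L hearts (-0.41 to 0.04, edgeR adjusted p = 0.384). In WT hearts 0.00536% of all genes were called, which is Tnpo3 alone, and in P635L hearts 3.88% (1.63% higher and 2.25% lower). Exact permutation tests gave p = 0.2 in WT and p = 0.0571 in P635L, and the WT value was 0.09 without WT Tnpo3 replicate 1. Over both genotypes the estimates cancelled to -0.00 (95% interval -0.16 to 0.16), a fold between 0.895 and 1.12. That interval bounds only the average of 2 opposite estimates. By genotype, the 95% interval of the fold was 0.970 to 1.33 in WT and 0.752 to 1.03 in P635L hearts.

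The difference between these 2 virus effects of Tnpo1 was -0.37 (95% interval -0.69 to -0.05). Its unadjusted p was 0.0267, its edgeR adjusted p 0.334, and a two-sided exact permutation test over 4900 assignments gave p = 0.0143. In this interaction 0.504% of all genes were called. With 1 library left out the difference lay between -0.44 and -0.28, the latter without WT Tnpo3 replicate 1, and it had the same sign in all 25 alternatives. The adjusted p ranged from 0.15 to 0.571 over them, so the difference did not pass the correction over all genes.

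Between the genotypes, Tnpo1 was lower in P635L Tnpo3 than in WT Tnpo3, by a log2 fold change of -0.40 (95% interval -0.62 to -0.17, edgeR adjusted p = 0.0482), and these 2 groups do not overlap. Of all genes, 3.72% were called in this contrast, 1.72% higher and 2.0% lower, and the exact permutation test gave p = 0.0286, the smallest that 70 assignments allow. The call lies close to the threshold: the adjusted p was 0.05 or higher in 18 of 26 alternatives, over which it ranged from 0.012 to 0.172 with the sign unchanged. It was kept with 1 library left out only for WT Ctr replicate 2 and WT Tnpo3 replicates 3 and 4. The summed cardiomyocyte markers also differed between these groups, as given above, and their part in the result was not tested. Under the control virus the genotypes differed by -0.03 (95% interval -0.25 to 0.20, edgeR adjusted p = 0.896).

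Tnpo2 (ENSMUSG00000031691, chromosome 8, 85763544 to 85784212, plus strand) did not pass the test in any of the 6 contrasts. It was at 32.2, 38.6, 29.98 and 35.6 CPM in WT Ctr and at 27.3, 34.2, 35.4 and 38.6 CPM in WT Tnpo3, ranges that almost coincide. In P635L Ctr it was at 26.6, 29.0, 28.2 and 25.7 CPM, and in P635L Tnpo3 at 30.9, 37.3, 25.6 and 31.3 CPM, where replicate 3 lay under all P635L Ctr libraries and the other 3 above them. The virus effect was -0.01 in WT hearts (95% interval -0.28 to 0.26, edgeR adjusted p = 1), and 0.19 in P635L hearts (-0.07 to 0.46, edgeR adjusted p = 0.451). Over both genotypes it was 0.09 (-0.10 to 0.28), a fold of 1.07 between 0.935 and 1.21. The interaction was 0.20 (-0.17 to 0.58, edgeR adjusted p = 0.668). Under the control virus every P635L Ctr library lay under every WT Ctr library, with a log2 difference of -0.32 (-0.58 to -0.05) and an exact permutation p of 0.0286. The edgeR adjusted p of this difference was 0.106, and 14.2% of all genes were called in the contrast. The authors' deposited table gives the difference as -0.30 (SE 0.12) with an adjusted p of 0.0668. The size fell to -0.15 without the libraries rich in ENSMUSG00000119584, of which 2 are WT Ctr libraries. P635L Ctr also had the lowest summed cardiomyocyte markers and the highest summed fibroblast markers of the 4 groups, and their part in the Tnpo2 difference was not tested.

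**Figure D2:**
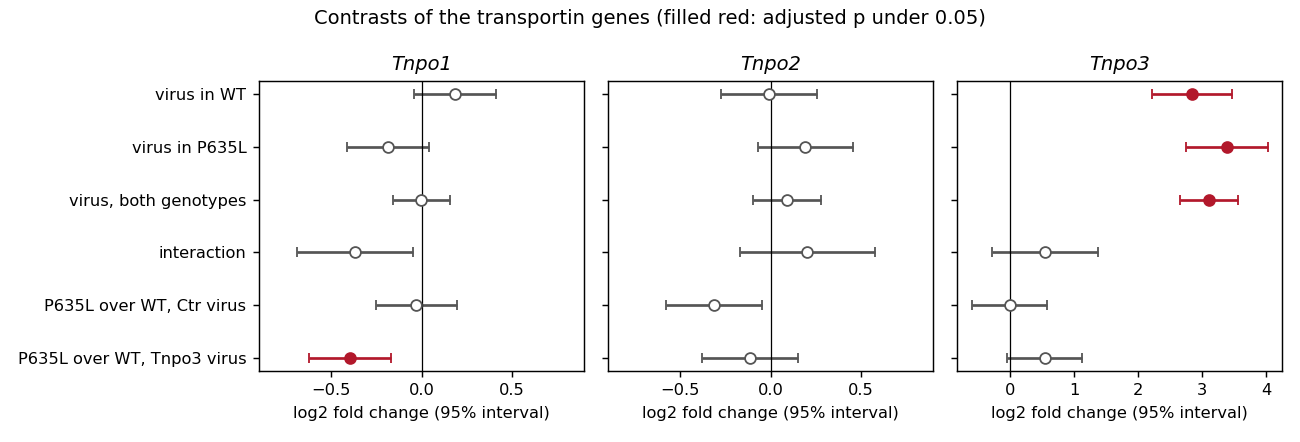
Log2 fold changes of the 3 transportins in 6 contrasts with 95% intervals from edgeR, where filled red points had an adjusted p under 0.05. Tnpo3 was called in the 3 virus contrasts and Tnpo1 in P635L against WT under the Tnpo3 virus (-0.40), and no interval of Tnpo2 belongs to a call.

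The share of Tnpo3 among the counts of the family, which is not a share of molecules since the genes differ in length, was higher with the virus. Tnpo3 made up 37.5% to 37.8% of the summed transportin CPM in WT Ctr and 38.9% to 41.6% in P635L Ctr. In the virus groups its share was 75.6% to 86.4% in WT and 78.8% to 90.6% in P635L hearts. The sum of Tnpo1 and Tnpo2 stayed between 58.8 and 81.6 CPM over all 16 libraries. Per kilobase of exon, the ratio of the Tnpo1 level to the Tnpo2 level was 0.665 ± 0.0546 in WT Ctr, 0.78 ± 0.238 in WT Tnpo3, 0.81 ± 0.0998 in P635L Ctr and 0.629 ± 0.078 in P635L Tnpo3 (SD, n = 4 each), so Tnpo2 was the more abundant of the pair in each group mean. Among 20 genes of the importin beta family ranked by CPM per kilobase in WT Ctr, Tnpo2 was 9th at 5.43, Tnpo1 13th at 3.58 and Tnpo3 14th at 3.42, with Ipo5, the highest, at 33.1. By this measure Tnpo1 and Tnpo3 differed by less than the SD of either, at 0.167 and 0.251. The exon length used was 13100 bases for Tnpo3, 11212 for Tnpo1 and 6285 for Tnpo2. The transcripts Tnpo3-201, Tnpo1-202 and Tnpo2-201 are 4251, 8453 and 4863 bases long. The per-kilobase order of the members thus depends on the length chosen, and ranks by transcript length were not computed. In the virus groups Tnpo3 reached 24.5 in WT, behind Ipo5 at 34.2, and 35.4 in P635L hearts, ahead of Ipo5.

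**Figure D3:**
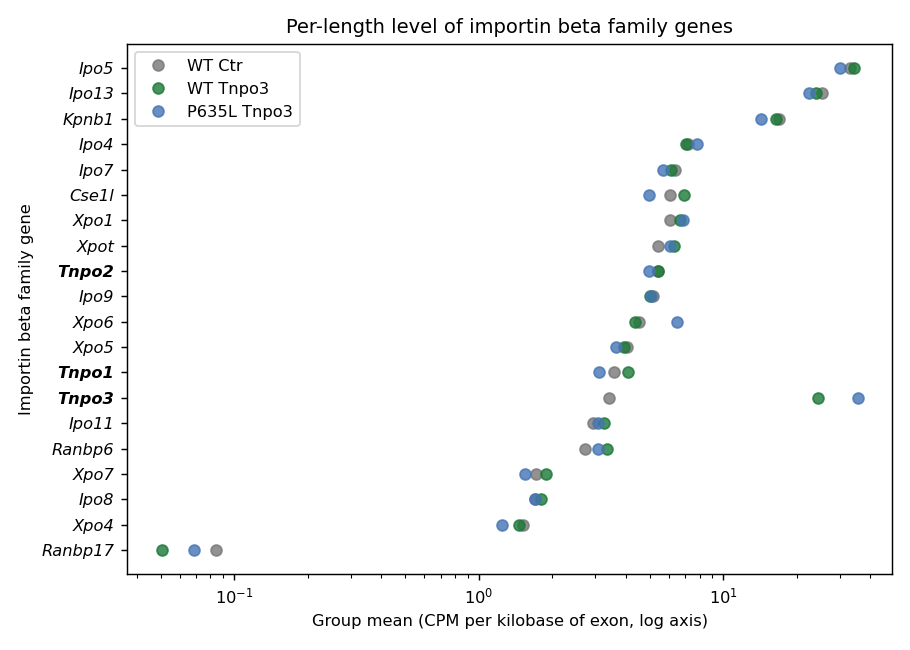
Mean level per kilobase of exon (logarithmic axis) of 20 importin beta family genes in WT Ctr and both Tnpo3 virus groups, ordered by WT Ctr. Tnpo3 moves from 3.42 in WT Ctr to 24.5 and 35.4 by its annotated exon length, which need not be that of the vector's transcript. The points of Tnpo1 and Tnpo2 lie close together.

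The other genes of the pathway were read from 8 lists with 67 genes, of which 65 were tested and Kpna7 and Rangrf were not. By edgeR, 0 of the 65 were called with the virus in WT hearts, in P635L hearts, over both genotypes or in the interaction. At an unadjusted p under 0.05 these contrasts held 2, 12, 5 and 8 of the 65 (3.08%, 18.5%, 7.69% and 12.3%), against 3.2%, 18.4%, 10.7% and 12.4% of all genes tested. The shares were thus near or under those of all genes. By DESeq2 the counts were 0, 2, 0 and 1, and the genes were Ipo7 and Xpo1 in P635L hearts and Xpot in the interaction. Among all genes, DESeq2 called 3, 1370, 317 and 402 in these contrasts. The share of all genes called by DESeq2 is not given here. Its counts of list genes, in these contrasts and below, are thus not read as a result about the lists. The median log2 fold change of the 65 genes was -0.03 in WT and -0.06 in P635L hearts, against -0.02 and 0.01 over all genes.

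Among the cargo, the 14 genes of SR proteins, Cpsf6 and Rbm20, which transportin 3 carries, had a median of 0.01 with the virus in WT and -0.08 in P635L hearts. The 13 genes of transportin 1 and 2 cargo had medians of -0.16 and -0.08, and the 7 SR protein kinases of the Srpk and Clk families -0.02 and 0.11. Of the other receptors, the 9 import receptors had medians of -0.03 and -0.08 and the 8 export receptors 0.05 and -0.09. The 5 importin alpha adaptors tested, which link classical cargo to importin beta, had medians of 0.10 and -0.10, and the 7 genes of the Ran cycle -0.07 and -0.07. In none of these lists was a gene called by edgeR with the virus.

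For the mutation under the control virus edgeR called 6 of the 65 genes, 3 in each direction, where 14.2% of all genes were called, 7.07% higher and 7.14% lower. DESeq2 called 9, these 6 and Srsf1, Srsf5 and Kpna2, where it called 3327 of all genes. Srsf2 and Srsf7, SR splicing factors, rose by 0.48 (edgeR adjusted p = 0.0195) and 0.41 (edgeR adjusted p = 0.0277), and Xpot, the exporter of transfer RNA, by 0.45 (edgeR adjusted p = 0.00492). Ipo13, a receptor for import and export and the closest relative of Tnpo3 in the family, fell by 0.49 (edgeR adjusted p = 0.0206), from 107 ± 15.3 to 76.1 ± 4.6 CPM (SD, n = 4 each). The importin alpha gene Kpna6 fell by 0.41 (edgeR adjusted p = 0.029). AU040320, which encodes the receptor of adeno-associated virus, fell by 0.49 (edgeR adjusted p = 0.00971), from 43.2 ± 5.69 CPM in WT Ctr to 30.8 ± 3.63 CPM in P635L Ctr. It was at 41.3 ± 5.5 CPM in WT Tnpo3 and 33.9 ± 0.966 CPM in P635L Tnpo3. Between genotypes under the Tnpo3 virus, edgeR called 1 of the 65 and 3.72% of all genes. DESeq2 called 5 of the 65 (Clk2, Cse1l, Kpna1, Kpna6 and Srsf11) and 1426 of all genes. The gene called by edgeR, the importin alpha gene Kpna1, was at 58.8 ± 20.5 CPM in WT Tnpo3 and 36.7 ± 1.05 CPM in P635L Tnpo3 (SD, n = 4 each), a log2 difference of -0.68 (edgeR adjusted p = 0.0444).

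Each library was then placed on the axis between the control groups. The axis is the mean log2 CPM of the 1320 genes called higher in P635L Ctr than in WT Ctr minus that of the 1333 called lower, scaled so that the mean of WT Ctr is 0% and that of P635L Ctr 100%. The control libraries chose these genes, so the axis is a description with no test, and the choice itself draws wild-type libraries that it did not use above 0% and such P635L libraries under 100%. P635L Tnpo3 replicates 1 to 4, at 359, 723, 543 and 234 CPM of Tnpo3, stood at 47.5%, 51.5%, 43.6% and 66.2%. The library with the lowest Tnpo3 level lay closest to P635L Ctr, and the library with the highest level was not the closest to WT Ctr. The other 3 libraries, from 359 to 723 CPM of Tnpo3, lay between 43.6% and 51.5%. WT Tnpo3 replicates stood at 8.58%, 7.64%, 8.91% and 8.45%, with 507 CPM of Tnpo3 in replicate 4 and 231 CPM in replicate 3.

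Genes with large mutation effects gave no single order by Tnpo3 level. Hopx, a homeodomain cofactor of heart development, was at 32.7, 43.1, 32.6 and 15.0 CPM in P635L Tnpo3 replicates 1 to 4, lowest in the library with least Tnpo3 and highest in that with most. Nppa, the gene of atrial natriuretic peptide, was at 1094, 1198, 916 and 4506 CPM, so that replicate 4 alone came near the lowest P635L Ctr library at 5133 CPM. Myh7b, a myosin heavy chain gene that hosts a microRNA, was at 48.0, 50.5, 33.9 and 44.7 CPM. Casq1, the skeletal form of calsequestrin, was at 120, 71.5, 94.8 and 73.8 CPM, so that the 2 libraries with the lowest Casq1 had the most and the least Tnpo3. All 4 P635L Tnpo3 libraries lay between the ranges of P635L Ctr and WT Ctr for each of these 4 genes, whatever their Tnpo3 level. The 4 genes were chosen with earlier results of these data known, so this place between the controls is a description with no test.

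**Figure D4:**
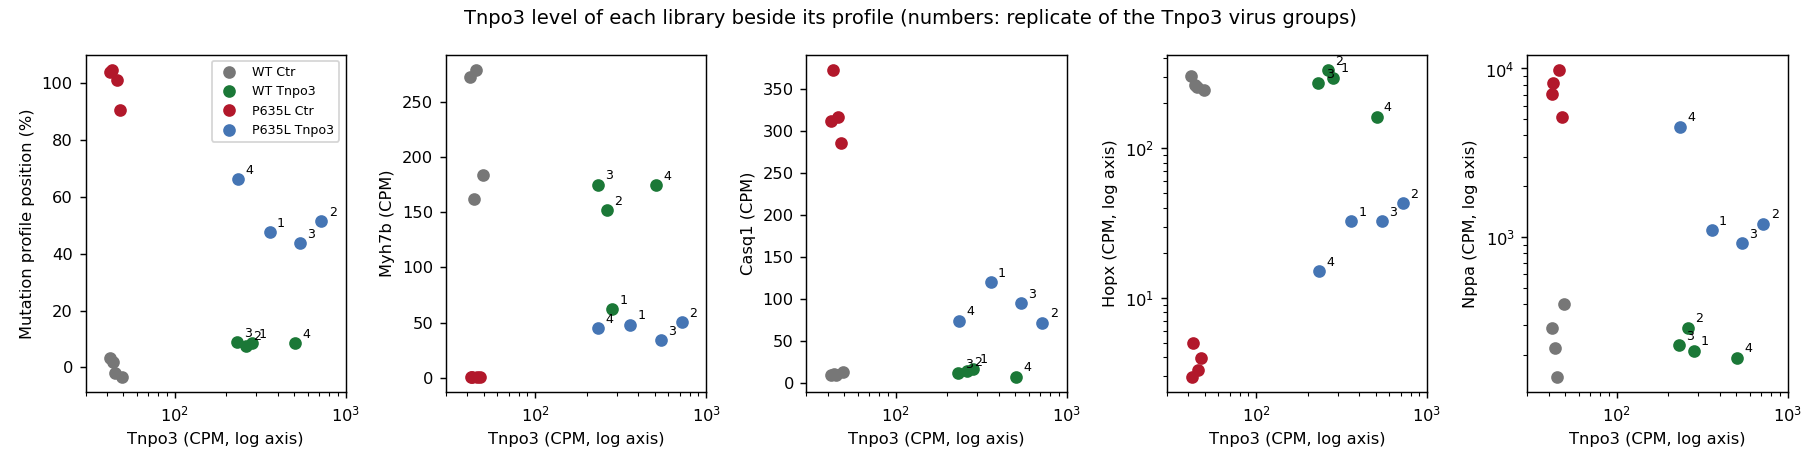
Tnpo3 level of each library (CPM, logarithmic axis) against its position between the control groups in percent and the levels of Myh7b, Casq1, Hopx and Nppa. P635L Tnpo3 replicate 4, with 234 CPM of Tnpo3, stands at 66.2% and 4506 CPM of Nppa, and the 4 WT Tnpo3 libraries stay at 7.64% to 8.91%.

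Across all genes, the 8 Tnpo3 virus libraries were fitted on their Tnpo3 level within genotype. Of 17440 genes tested by edgeR, 0% were called at an adjusted p under 0.05, and the smallest adjusted p was 0.893. A fit on 8 libraries can miss genes, so this does not show that no gene follows the Tnpo3 level. At an unadjusted p under 0.05 there were 842 genes, or 4.83%. Per 2-fold more Tnpo3, log2 Tnpo1 changed by 0.05 (SE 0.12, edgeR adjusted p = 0.958) and log2 Tnpo2 by 0.12 (SE 0.13, edgeR adjusted p = 0.902). The slopes of the 4 genes above were 0.08 for Myh7b, -0.31 for Casq1, 0.31 for Hopx and -0.93 for Nppa, with unadjusted p of 0.774, 0.216, 0.332 and 0.00647. That of Irf5 was 0.36 (unadjusted p = 0.0513), and none of these 5 passed the correction over all genes. Nppa has 1 library, P635L Tnpo3 replicate 4, far from the rest of its group. With values centred within genotype, Pearson's r between Tnpo3 and Tnpo1 over the 8 libraries was 0.16 (exact permutation p = 0.681) and Spearman's rho 0.36 (exact permutation p = 0.358). For Tnpo2 they were 0.30 (exact permutation p = 0.505) and 0.31 (exact permutation p = 0.517). The Benjamini-Hochberg values over the pair of relations were 0.681 for r and 0.517 for rho in both. Without P635L Tnpo3 replicate 2 and WT Tnpo3 replicate 4, the libraries farthest from the median, r was 0.34 for Tnpo1 (exact permutation p = 0.333) and -0.69 for Tnpo2 (exact permutation p = 0.0833). The sign for Tnpo2 thus rested on those libraries.

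The genes most like each transportin were found among 12449 genes by Pearson's r of log2 CPM over the 16 libraries, given as a description, since values of a library share its composition. Tnpo1 was closest to Prkacb at 0.957, Rad21 at 0.948 and Api5 at 0.940. Tnpo2 was closest to Msl1 at 0.866, Fam219b at 0.850 and C130074G19Rik at 0.828. For Tnpo3, whose spread over the libraries is mostly that between the viruses, the closest were Cdk17 at 0.806, Rpsa-ps10 at 0.793, a pseudogene that may share reads with its parent, and Gm33424 at 0.769. Between the members r was 0.07 for Tnpo1 and Tnpo2, -0.07 for Tnpo1 and Tnpo3 and 0.24 for Tnpo2 and Tnpo3.

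The splicing tables list 4 values per group, called listed positions here because the files do not tie them to libraries. They hold 17 entries of 9 exons for Tnpo3, 8 of 2 for Tnpo2 and 1 of 1 for Tnpo1. In the authors' deposited tables, 2 of these entries, both of Tnpo3, had an FDR under 0.05. The share of all entries under that FDR was not computed, so this count has no background beside it. Both are the alternative 3′ splice site whose segment is printed above, at chromosome 6, 29554794 to 29554979 in the long form. They are thus 1 event, set in both cases against the same WT Ctr reads. The short form had 44, 52, 58 and 61 junction reads in WT Ctr and 768, 689, 525 and 961 in WT Tnpo3. It had 70, 177, 69 and 111 in P635L Ctr and 992, 2698, 2024 and 914 in P635L Tnpo3. Reads of the long form were 1, 2, 7 and 8 in WT Ctr, 0, 0, 10 and 1 in WT Tnpo3, 3, 17, 8 and 0 in P635L Ctr and 2, 3, 10 and 0 in P635L Tnpo3. The short form therefore carried the rise, and the long form stayed at a few reads in each group.

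Junction reads were scaled to 1000000 junction reads of the 32682 events held in all tables (RPM). The long form was at 0.202 ± 0.157 RPM in WT Ctr, 0.118 ± 0.199 in WT Tnpo3, 0.182 ± 0.148 in P635L Ctr and 0.121 ± 0.131 RPM in P635L Tnpo3 (SD, n = 4 each), all overlapping. The short form was at 2.48 ± 0.413 RPM in WT Ctr and 33.6 ± 16.3 RPM in WT Tnpo3, and at 3.02 ± 0.357 and 54.5 ± 27 RPM in the same groups of P635L hearts. The inclusion level, the share of the long form, was 0.019, 0.032, 0.094 and 0.101 in WT Ctr and 0, 0, 0.016 and 0.001 in WT Tnpo3, groups that do not overlap (exact permutation p = 0.0286). The authors' deposited table gives this comparison an FDR of 0.000373. In P635L Ctr it was 0.036, 0.076, 0.091 and 0, and in P635L Tnpo3 0.002, 0.001, 0.004 and 0, with a shared 0 and an exact permutation p of 0.143. The authors' deposited table compares P635L Tnpo3 with WT Ctr, and gives an FDR of 0.000151.

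**Figure D5:**
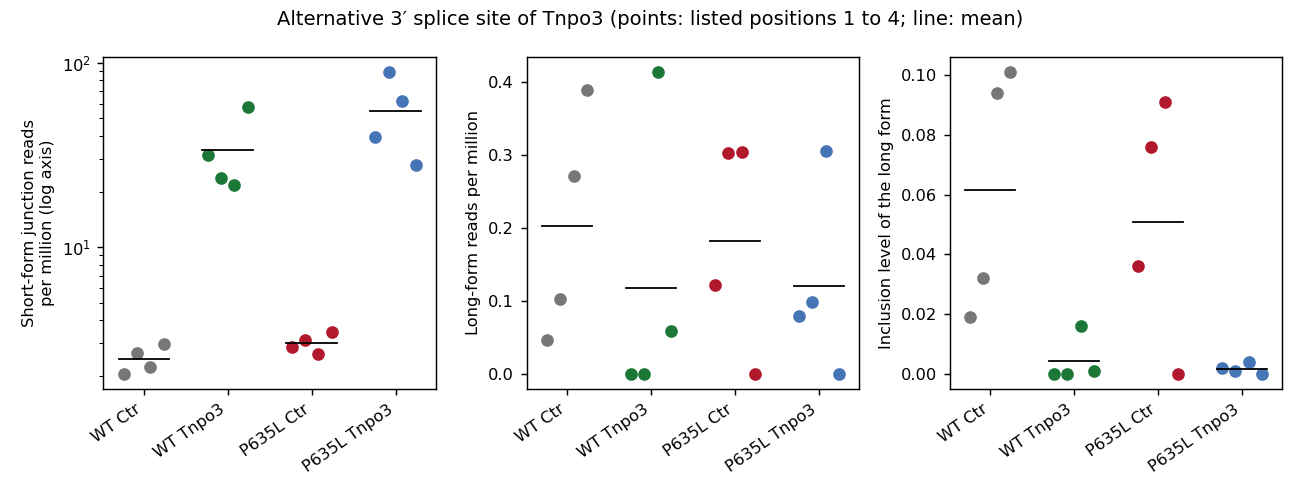
Short-form junction RPM (logarithmic axis), long-form RPM and the authors' inclusion level of the alternative 3′ splice site of Tnpo3 at each of 4 listed positions per group, with group means. The short form rises from 2.48 to 33.6 in WT and from 3.02 to 54.5 in P635L hearts, while the long-form groups overlap.

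The folds of single Tnpo3 junctions were larger than that of its gene count, a difference that was not tested. The group mean of the gene count rose 7.15 times in WT and 10.4 times in P635L hearts, and the short-form junction 13.5 and 18.1 times. Reads that join exon 29571035 to 29571126 to its neighbours rose 27.4 and 25.0 times. The junction that skips exon 29599539 to 29599697, near the 5′ end of the gene, rose 41.7 and 45.0 times, from 38 reads in all of WT Ctr and 94 in all of P635L Ctr. For each of these 6 junction comparisons the groups do not overlap (exact permutation p = 0.0286). Junction and gene values have different denominators, and between the control groups, where the gene count ratio was 0.991, the same 3 junctions differed by 1.22, 1.66 and 1.43 times (exact permutation p = 0.143, 0.0571 and 0.371). In WT hearts the fold of the second junction rested on listed position 4, without which it was 16.6, and that of the third was 25.4 without it.

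The alternative 3′ splice site of Tnpo2 (chromosome 8, 85781321 to 85781426 in the long form) was used at a more even ratio. Its inclusion level was 0.263, 0.189, 0.228 and 0.336 in WT Ctr, 0.639, 0.228, 0.384 and 0.344 in WT Tnpo3, 0.139, 0.385, 0.43 and 0.229 in P635L Ctr and 0.44, 0.226, 0.237 and 0.348 in P635L Tnpo3. All groups overlap, at 30 to 133 reads per position. The virus effect was 0.145 in WT hearts (exact permutation p = 0.143) and 0.017 in P635L hearts (exact permutation p = 0.8). The only entry of Tnpo1, a skipped exon in the table of P635L Ctr, had an FDR of 1 in the authors' deposited table.

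Within P635L Tnpo3, the short-form junction reads of each listed position can be set beside the inclusion of RBM20 target exons at that position. The exons were those with the largest difference between the control groups in each gene. That choice itself draws values that it did not use away from P635L Ctr, so these values are a description with no test. Positions 1 to 4 had 39.3, 89.0, 62.0 and 27.9 RPM of the Tnpo3 short form. A 78-base exon of Ttn, the giant spring protein of the sarcomere, had inclusion levels of 0.283, 0.18, 0.19 and 0.083 there, against 0.898 to 1 in P635L Ctr and 0 to 0.1 in WT Ctr. A 60-base exon of the kinase gene Camk2d was at 0.372, 0.122, 0.587 and 0.244, against 0.831 to 1 and 0 to 0.071. For Ttn and Camk2d the position with the least Tnpo3 was not the one closest to P635L Ctr. A 24-base exon of the calcium release channel gene Ryr2 was at 0.027, 0.033, 0.027 and 0.1, against 0.179 to 0.226 and 0 to 0.02, and here position 4, with the least Tnpo3, was closest to P635L Ctr. A 359-base exon of Ldb3, a Z-disc protein gene, was at 0.919, 0.931, 0.929 and 0.962, against 0.627 to 0.68 and 0.943 to 0.968. All 16 values, from 4 exons chosen in this way at the same 4 positions, lay outside the range of P635L Ctr on the side of WT Ctr. The 4 exons did not order the positions alike.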

How the data were processed

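Left ventricle RNA of 16 mice was sequenced from stranded libraries of polyadenylated RNA, per the labels' protocols. The authors' deposited gene table holds raw counts, 1 column per library. STAR 2.7.9a, featureCounts 2.0.6, DESeq2 and GRCm39 are named in the submitters' processing notes. The deposited comparison tables give the mean normalised signal per gene, log2 fold changes, p-values and adjusted p-values per the file headers, and the deposited rMATS tables give junction reads, inclusion levels, p-values and FDRs. Members, gene lists and the genes Myh7b, Casq1, Hopx and Nppa were chosen with earlier results of these data known.

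The counts entered a robust quasi-likelihood model (edgeR 4.0.16, R 4.3.3) after TMM scaling and filterByExpr, with a mean per group over 16 libraries and 12 residual degrees of freedom. Tests were two-sided, p-values were adjusted by Benjamini-Hochberg across the whole table, and the threshold was 0.05. The fits were tested on simulated data. CPM per kilobase used the exon length in the deposited table. Log2 CPM used a prior count of 0.5. The fit on the Tnpo3 level used genotype and log2 CPM of Tnpo3 in 8 libraries, without Tnpo3 among the genes. Transcripts were compared with Biopython 1.88. DESeq2 1.42.0 was an alternative. Named were the members, overlapping genes, 4 genes with large mutation effects, the 3 genes most like each member, and called genes of the lists. Genes named only in the DESeq2 counts and Ipo5 in the ranking fall outside this rule and were named after their values were seen. Splicing events were compared by exact permutation of 4 against 4 listed positions. RBM20 target exons were required to show an FDR under 0.05, an inclusion difference of 0.1 or more and, on average, 10 junction reads in the control groups. Replicate numbers were not used to pair the libraries, since same-numbered libraries were not all correlated above 0.1. These correlations were 0.0802 to 0.525 between WT Ctr and WT Tnpo3, and -0.0458 to 0.14 between P635L Ctr and P635L Tnpo3. The values do not settle whether the numbers pair mice. Each mouse gave 1 library, so the spread between libraries holds both counting error and the spread between mice, and the splice junctions with few reads are the least precise values.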

Additional observations from a re-analysis of the deposited data

Results flagged for a closer look

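In 8 of 64 groups of 4 values, 1 value stood far from the rest of its group by Dixon's test. Chance gives this in about 1 of 20 groups of normally distributed values. That rate does not hold for inclusion levels tied at 0 or 1, so the count cannot be set against it. Some of the flagged values come from the same mice or events. The level of Irf5 in WT Ctr replicate 1 was 18.2 CPM, against 4.03 to 5.62 CPM in the other WT Ctr libraries. The level of Nppa in P635L Tnpo3 replicate 4, the library of its group with the least Tnpo3, was 4506 CPM, against 916 to 1198 CPM. The inclusion level of the long form of Tnpo3 at listed position 3 of WT Tnpo3 was 0.016, against 0 to 0.001. At listed position 4 of WT Tnpo3, the reads that join the internal exon of Tnpo3 were at 153 reads per 1000000 junction reads, against 40.7 to 45.9, and the junction near the 5′ end at 41.5, against 10.2 to 12.6. Among RBM20 targets, the Ryr2 exon had an inclusion level of 0.1 at position 4 of P635L Tnpo3, against 0.027 to 0.033. The Ttn exon was at 0.898 at position 3 of P635L Ctr and the Camk2d exon at 0.831 at position 4, where the other positions were at 1.

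The estimated virus effects on Tnpo1 differed between the genotypes by -0.37 on the log2 scale, with an edgeR adjusted p of 0.334. This difference was flagged by an uncorrected exact permutation test (p = 0.0143). The null of that test is no virus effect in either genotype, so its p does not by itself show unequal effects. The estimates were 0.18 in WT and -0.18 in P635L hearts, and neither passed the test on its own.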

How the results depend on the processing

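Of 52 results, 25 kept direction and side of the threshold in all alternatives run for them. Small fold changes turned sign. Tnpo2 with the virus in WT (-0.01) was at 0.0087 with median-ratio factors, 0.0107 with upper-quartile factors, 0.00955 with both DESeq2 runs, 0.0199 without the filter on low counts, 0.0224 without ENSMUSG00000119584 in the totals, 0.0893 without the libraries rich in it, and -0.0786 to 0.0819 with 1 library left out. Tnpo1 over both genotypes (-0.00) was in the same order at 0.0127, 0.0227, 0.0125, 0.0122, 0.0144, 0.0529 and -0.0483 to 0.0313, and at 0.0281 without the libraries high in Xist. Tnpo1 between the Ctr groups was at 0.0208 without the filter, 0.00235 with that gene out of the totals, 0.0333 without the rich libraries, and -0.0817 to 0.0248 with 1 left out. Tnpo3 between the Ctr groups was at 0.00589 with upper-quartile factors, 0.0368 without the filter, 0.0972 without the rich libraries, 0.0225 without those high in Xist, 0.0181 with that gene out of the totals, and -0.0458 to 0.0602 with 1 left out. Tnpo2 between genotypes under the Tnpo3 virus was at 0.00751 without the libraries high in Xist.

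Tnpo1 between genotypes under the Tnpo3 virus lost its call with upper-quartile factors (-0.36), no filter (-0.38) and only the compared groups fitted (-0.39). The call was also lost without the libraries high in Xist (-0.42) and in 13 of 16 fits with 1 library left out. Over all 16 of those fits the value was -0.46 to -0.30. The call of Tnpo3 in WT was lost without the rich libraries (2.64, edgeR adjusted p = 0.281) and without those high in Xist (2.55, edgeR adjusted p = 0.102). With the replicate number as a block, Tnpo1 was at -0.39 (edgeR adjusted p = 0.0631), 677 and 547 genes were called with the virus in P635L and between genotypes under the Tnpo3 virus, and no other call of a member changed. Of 8 libraries in each pair of virus groups, 4 in WT and 4 in P635L correlated best with their own number.

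Counts of called genes moved by over 1.5 times as follows. With the virus in P635L, 724 became 2846 (compared groups alone), 1482 (rich out), 1282 (high Xist out), 1370 (DESeq2) and 282 to 1022 (1 left out). Between genotypes under the Tnpo3 virus, 694 became 462, 1887, 386, 1426 and 280 to 1220 in the same order. In the interaction, 94 became 146 (no filter), 322, 54, 402 (DESeq2), 279 (DESeq2 without independent filtering) and 52 to 221. Over both genotypes, 100 became 317 and 231 with DESeq2 and 48 to 127. With the virus in WT, 1 became 0 without either set of 3 libraries, 3 with either DESeq2 run, and 1 to 3 with 1 left out.

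Without centring, r of Tnpo3 with Tnpo1 was -0.24. With 1 library left out it was -0.11 to 0.48, that with Tnpo2 -0.0551 to 0.60, and the slopes -0.0346 to 0.14 and -0.00633 to 0.21. With genes changed by at least 1 on the log2 scale, WT Tnpo3 replicates 1 to 4 stood at 11.8%, 9.88%, 7.94% and 7.43%, and with 1 control library left out at 6.33% to 14.1%, 5.25% to 12.5%, 6.14% to 16.1% and 7.83% to 16.9%. With 1 listed position left out, the inclusion difference of the Tnpo3 segment was -0.0714 to -0.0441 with the virus in WT (exact permutation p up to 0.114, at or over 0.05 in 4 fits), -0.0659 to -0.0356 in P635L and -0.0249 to 0.00617 between the Ctr groups. For Tnpo2 it was 0.0647 to 0.202, -0.0353 to 0.0618 and -0.003 to 0.094. The control ratio of the internal exon junctions was 1.49 to 1.85. In 1 fit each, the exact permutation p fell to 0.0286 for the Tnpo3 segment in P635L, the Tnpo2 segment in WT and this control ratio. The causes of these changes were not tested. Fits with some libraries left out also held fewer libraries, and the part of that number was not tested.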
